A study of Mus musculus with 6 samples.

Results

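The 40 antioxidant and glutathione genes described here are NFE2L2 (NRF2) and its inhibitor, target genes of that factor, superoxide dismutases, catalase, peroxidases, thiol reductases and glutathione transferases. They were chosen by gene symbol, with earlier results of these data known, and all 40 were found among the 47480 rows of the deposited table. RNA sequencing covered chondrocytes, the cells of cartilage, of newborn mice in 2 groups. The A2ARKO group lacked the adenosine receptor A2AR through a knockout of its gene, Adora2a, on a C57BL/6 background, and the WT group was C57BL/6 with the gene intact. Each group had 3 libraries, each from the trypsinized cells of a whole litter pooled together, so a replicate is a litter pool and the share of single animals cannot be seen. The series was set up to look for drivers of osteoarthritis, and the age in days and the time in culture are not known here.

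Cells keep reactive oxygen in check in layers. Superoxide dismutases turn superoxide into hydrogen peroxide, and catalase, glutathione peroxidases and peroxiredoxins remove the peroxide. The glutathione peroxidases and peroxiredoxins draw their electrons from glutathione and thioredoxin, which NADPH-dependent reductases regenerate. The transcription factor NRF2, held back by KEAP1 until that protein is oxidized, switches on many of these genes through the antioxidant response element. Cartilage has few blood vessels, and its cells live at low oxygen and have long been studied for oxidative damage in osteoarthritis.

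Values are FPKM, which are per length and can be compared between genes. The sizes of the steps separating low values put the depth of a library at 41.3 to 52.2 M reads (M, mega) in WT and 51.1 to 58.0 M in A2ARKO. The least-read value of any member, in Txnrd2, rested on about 316 reads. Adora2a read 9.36, 7.31 and 3.46 FPKM in the 3 WT libraries, against 0.41, 0.54 and 0.66 FPKM in A2ARKO, lower in every A2ARKO library (12.5-fold lower mean; log2 fold change -2.25, limma adjusted p = 0.0203; two-sided exact permutation p = 0.1, the smallest that 3 against 3 libraries allow). The limma call was lost in 4 of the 6 fits with 1 library left out (adjusted p between 0.0582 and 0.0955), with the direction kept. Adora2a was below 1 FPKM in every A2ARKO library and so entered the test through WT alone. The libraries differed in cell type markers. The summed FPKM of 12 chondrocyte markers was 25686, 1256 and 396 in WT replicates 1, 2 and 3 and 2263, 4553 and 6345 in A2ARKO. The cartilage matrix gene Matn1 was down to 0.57 FPKM in WT replicate 3. Of 12 macrophage markers, the sum was 196, 1964 and 137 in WT and 53.9, 30.8 and 26.7 in A2ARKO, and of 7 skeletal muscle markers 7.45, 959 and 18.96 against 30.4, 10.2 and 14.6. None of the chondrocyte, macrophage or muscle markers passed limma. An unadjusted limma p below 0.05 was found for 7 of the 10 tested macrophage markers and none of the chondrocyte and muscle markers. Over all 11595 tested genes 2863 had one. In 8 of the 10 macrophage markers every A2ARKO library was below every WT library, against 14.9% of all tested genes. Among these 8, C1qa, C1qb and C1qc were below 1 FPKM in every A2ARKO library and entered the test through WT alone. The untested Fcgr1 and Mrc1 were also separated downward. All 12 chondrocyte markers had a log2 fold change above 0, as did 5840 of all tested genes. The direction of the chondrocyte markers depended on the scale, since 10 of the 12 had a lower mean FPKM in A2ARKO, with WT replicate 1 far above the other libraries. The 9 erythroid markers found were below 1 FPKM in every library, with Hba-a2, Hbb-bt and Slc4a1 at 0. Fibroblast markers summed to 5018 to 8392 FPKM in WT and 2797 to 3847 in A2ARKO, with 1 of 7 tested, Dpt, called as lower, osteoblast markers to 9.98 to 505 and 39.7 to 70.4, and adipocyte markers to 29.3 to 36.6 and 38.6 to 99.1. Endothelial and other leukocyte markers summed to 13.6 FPKM or less. The part of these cell types in the members' values was not tested. In bulk RNA, fewer cells of a type and less RNA per cell cannot be told apart.

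**Figure D1:**
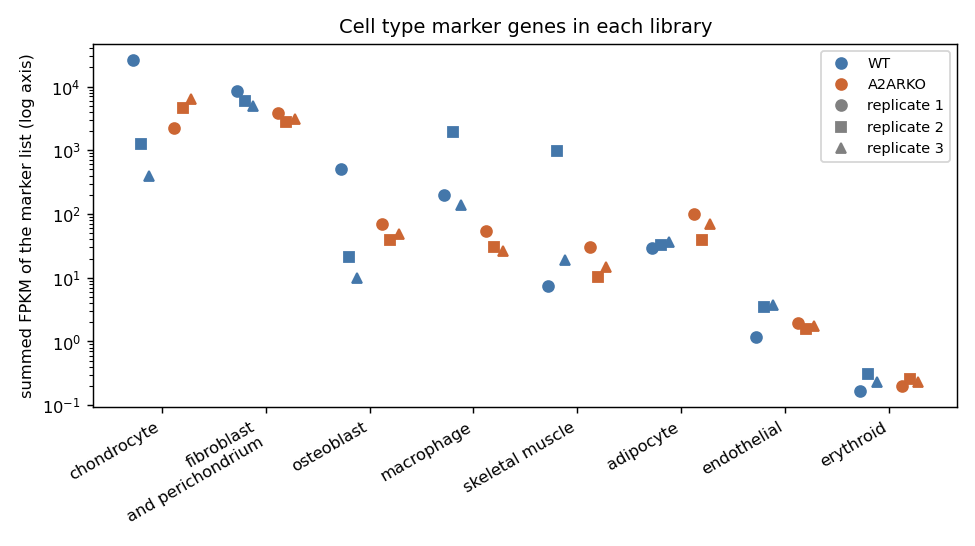
Summed FPKM (log axis) of 8 lists of cell type markers in each library, WT in blue and A2ARKO in orange, with a symbol for each replicate. WT replicate 1 is highest in chondrocyte markers (25686) and WT replicate 2 in macrophage (1964) and muscle (959) markers.

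Among the 40 members, 7 rose in A2ARKO and 0 fell (limma, adjusted p below 0.05 over all 11595 tested genes). They were Sod2 and Sod3, the glutathione synthesis gene Gclc, the glutaredoxin gene Glrx, the peroxiredoxin gene Prdx5, the transferase gene Gstt1 and Nfe2l2 itself. That is 17.5% of the members, where 5.08% of all tested genes were called, 3.31% as higher and 1.77% as lower. A further 7 members had an unadjusted p below 0.05, and 26 did not. Over all 11595 tested genes, 2863 had an unadjusted limma p below 0.05, the 589 called genes included. The 7 were thus a share of the uncalled members near that of all uncalled genes. All 40 were at 1 FPKM or more in every library, so no member entered the test through one genotype alone. The median log2 fold change of the members was 0.298, against 0.002 over all tested genes, and 34 lay above 0. In 19 members every A2ARKO library was above every WT library, or 47.5%, against 18% of all tested genes, and 0 were separated the other way (14.9% of all tested genes). With the libraries rescaled to the same FPKM sum, 4 members rose (Gclc, Sod2, Sod3 and Prdx5) and 0 fell, 28 lay above 0, 11 were separated upward (8.61% of all tested genes) and 0 downward (19.2%), and the median of all tested genes moved by about -0.1, to -0.098. Over all tested genes the calls split into 384 higher and 205 lower as deposited, and 178 and 170 after rescaling.

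**Figure D2:**
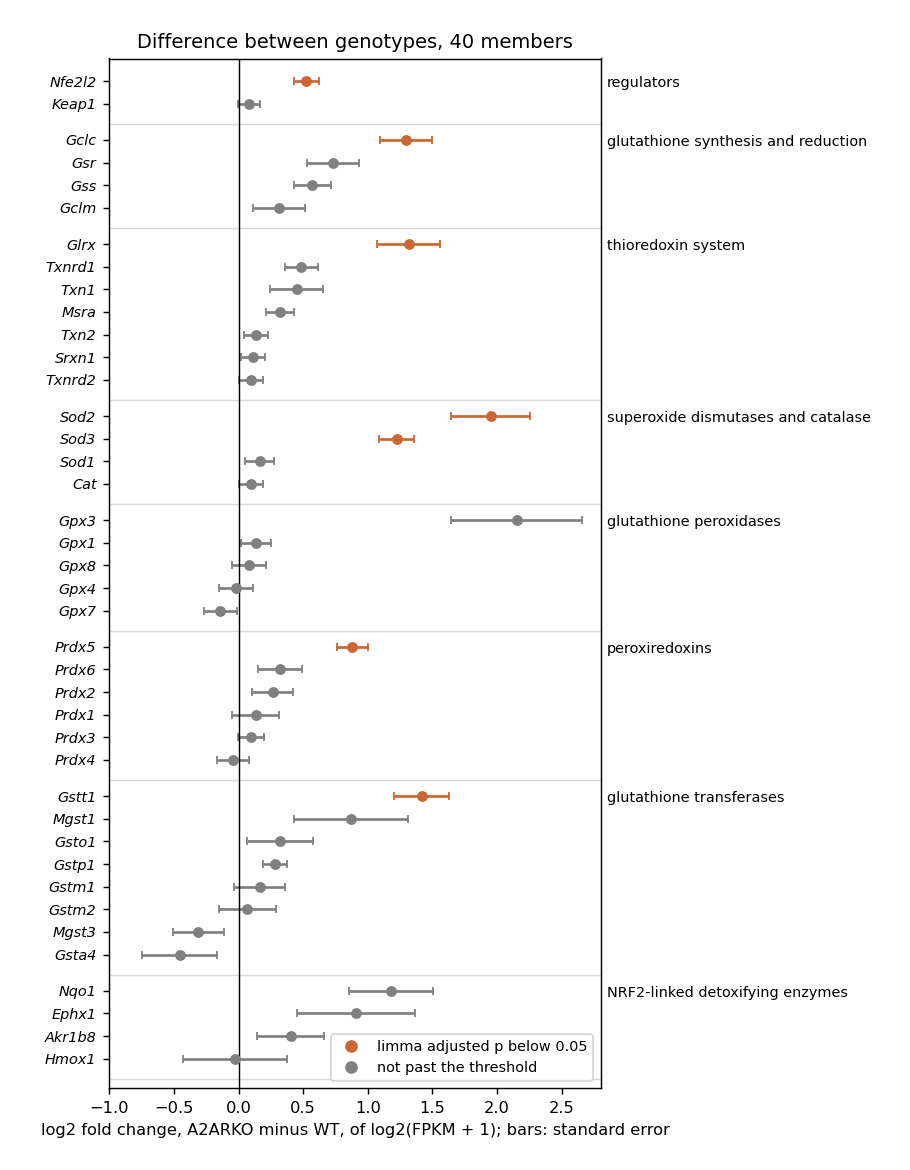
Log2 fold change (A2ARKO less WT, from log2 of FPKM + 1) of each of the 40 members by class, with bars for the standard error. The 7 genes in orange passed limma's threshold, all to the right of 0, and Gpx3 has the largest value (2.15) but is grey.

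The summed FPKM of all 40 members was close within each genotype and apart between them. It was 1849, 1878 and 1798 in WT and 2600, 2697 and 2777 in A2ARKO, or 0.631%, 0.741% and 0.778% of all FPKM in WT and 0.966%, 0.992% and 0.923% in A2ARKO. The ratio of the genotype means was 1.46. Such a sum is weighted by abundant genes, and a large part of its rise was Gpx3, which did not pass (means of 104 and 420 FPKM). The WT libraries nevertheless differed gene by gene. On the log2 scale the median SD of a member was 0.257 in WT and 0.128 in A2ARKO, as for all tested genes (0.192 and 0.0966), and 33 members had the larger SD in WT. WT replicate 1 was the lowest of the 6 libraries for 17 members and WT replicate 3 for 14, while A2ARKO replicates 1 and 2 were the lowest for none.

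Nfe2l2, which encodes NRF2 (mm10 chromosome 2, 75675513 to 75704641, minus strand), read 29.1, 34.6 and 31.4 FPKM in the 3 WT libraries, against 47.4, 43.7 and 46.6 FPKM in A2ARKO. All 3 A2ARKO libraries were above all 3 WT libraries, with little spread on either side. The mean rose from 31.7 ± 2.73 to 45.9 ± 1.91 FPKM (SD, n = 3; log2 fold change 0.52, SE 0.10, limma adjusted p = 0.0405). Keap1, whose protein marks NRF2 for degradation, read 15.9, 15.3 and 14.0 FPKM in the 3 WT libraries, against 15.1, 16.1 and 16.9 FPKM in A2ARKO. Its groups overlapped, and it did not pass (log2 fold change 0.08, and -0.029 after rescaling; adjusted p = 0.600). The Nfe2l2 level was therefore 2.11 ± 0.241 times that of Keap1 in WT and 2.87 ± 0.234 times in A2ARKO, with no overlap, and this ratio is untouched by the scaling between libraries. Nfe2l2 was the least firm of the 7 calls. It did not pass without WT replicates 2 or 3 (adjusted p of 0.0515 and 0.0585), without A2ARKO replicates 1, 2 or 3 (0.131, 0.160 and 0.170), after rescaling (0.217) or after quantile normalization (0.0507).

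Promoter windows of 33 of the 40 members, from 250 bases before to 50 after an annotated start, were searched on both strands. The core of the antioxidant response element, TGACNNNGC, was in 7 of the 33 (21.2%), among them Nfe2l2, Prdx1, Srxn1, Txnrd1 and Gclm, against 17.1% of 8734 tested genes with a window. The NF-kappaB motif was in 2 (6.06%, against 6.37%), the AP-1 motif TGANTCA in 4 (12.1%, against 5.94%) and the cAMP response element TGACGTCA in 0 (against 3.63%). The element core and the AP-1 motif can overlap, as they do in Prdx1. Of the 5 members that rose and have a window, Nfe2l2 held the element core, Sod2 the NF-kappaB motif and Glrx the AP-1 motif. These 3 windows are shown with that of Prdx1, which held 4 matches of 3 motifs and whose level did not pass the test (67.0 ± 15.3 FPKM in WT and 72.4 ± 6.02 FPKM in A2ARKO). Capitals mark the matches, and the sequences are RefSeq's on GRCm38.p6, the assembly also named mm10, read 5′ to 3′ on the gene's strand. A match is a description of these letters, not evidence of binding.
Nfe2l2, minus strand of chr2:75704614-75704913, an element core 240 bases before the start: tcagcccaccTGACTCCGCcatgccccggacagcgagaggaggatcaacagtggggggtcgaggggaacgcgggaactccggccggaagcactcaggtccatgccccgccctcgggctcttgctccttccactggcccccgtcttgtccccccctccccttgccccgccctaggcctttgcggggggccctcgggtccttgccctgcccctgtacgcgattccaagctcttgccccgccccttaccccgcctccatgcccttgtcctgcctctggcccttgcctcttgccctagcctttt
Sod2, plus strand of chr17:13007589-13007888, an NF-kappaB motif 83 bases before the start: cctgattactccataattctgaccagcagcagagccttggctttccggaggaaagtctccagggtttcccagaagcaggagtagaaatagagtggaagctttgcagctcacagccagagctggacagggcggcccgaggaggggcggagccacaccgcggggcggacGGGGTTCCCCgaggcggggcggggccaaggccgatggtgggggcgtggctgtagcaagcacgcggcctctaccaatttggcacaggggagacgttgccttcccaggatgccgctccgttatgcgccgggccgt
Glrx, plus strand of chr13:75839635-75839934, an AP-1 motif 98 bases before the start: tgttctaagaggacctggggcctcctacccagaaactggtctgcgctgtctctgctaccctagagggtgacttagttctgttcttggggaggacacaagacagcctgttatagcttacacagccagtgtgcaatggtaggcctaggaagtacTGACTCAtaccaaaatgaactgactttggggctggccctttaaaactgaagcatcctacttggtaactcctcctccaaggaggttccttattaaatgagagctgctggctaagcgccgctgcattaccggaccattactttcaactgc
Prdx1, plus strand of chr4:116685349-116685648, AP-1 motifs 237 and 131 bases before the start, an NF-kappaB motif at 170 and an element core at 133: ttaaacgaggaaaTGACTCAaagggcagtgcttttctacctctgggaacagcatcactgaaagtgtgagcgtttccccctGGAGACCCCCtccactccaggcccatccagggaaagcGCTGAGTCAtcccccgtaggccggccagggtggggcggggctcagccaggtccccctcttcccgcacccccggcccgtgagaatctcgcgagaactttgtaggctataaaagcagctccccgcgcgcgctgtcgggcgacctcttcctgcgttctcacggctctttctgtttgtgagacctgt

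Of the 4 genes of glutathione synthesis and reduction, Gclc passed, and all 4 had log2 fold changes above 0. Gclc encodes the catalytic subunit of glutamate-cysteine ligase, the rate-limiting enzyme (chromosome 9, 77754535 to 77794485, plus strand), and read 10.6, 6.19 and 7.07 FPKM in the 3 WT libraries, against 17.5, 22.6 and 21.8 FPKM in A2ARKO. The groups did not overlap, and WT replicate 1 was the highest of WT. The mean rose from 7.94 ± 2.32 to 20.6 ± 2.76 FPKM, 2.59-fold (SD, n = 3; log2 fold change 1.29, SE 0.20, limma adjusted p = 0.0284). Gclm, the modifier subunit of the same enzyme, read 5.40, 7.60 and 7.64 FPKM in the 3 WT libraries, against 11.1, 8.65 and 6.80 FPKM in A2ARKO. Its groups overlapped (log2 fold change 0.31, adjusted p = 0.387), and the ratio of Gclc to Gclm was 1.96, 0.814 and 0.925 in WT and 1.57, 2.61 and 3.20 in A2ARKO, which overlap through WT replicate 1. Gss, the second enzyme of synthesis, and Gsr, which reduces oxidized glutathione, were each higher in every A2ARKO library but did not pass, at means of 4.01 ± 0.829 against 6.40 ± 0.700 and 7.72 ± 1.69 against 13.5 ± 3.04 FPKM (adjusted p of 0.0768 and 0.0927). The summed level of the 4 genes was 27.0, 27.0 and 25.7 FPKM in the 3 WT libraries, against 45.9, 50.5 and 51.7 FPKM in A2ARKO, a ratio of 1.86, and 1.705 after rescaling. The Gclc call was lost with WT replicate 2 left out (adjusted p = 0.0589) and with A2ARKO replicates 1, 2 or 3 left out (0.0723, 0.124 and 0.119). Gss passed without WT replicate 1 (0.0313).

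Of the superoxide dismutase genes, Sod2 and Sod3 passed and Sod1 did not. Sod2 encodes the manganese enzyme of mitochondria (chromosome 17, 13006846 to 13040063, plus strand) and read 11.9, 24.2 and 10.3 FPKM in the 3 WT libraries, against 58.3, 53.0 and 65.1 FPKM in A2ARKO. The lowest A2ARKO library was well above WT replicate 2, the highest of WT and the library with the most macrophage and muscle marker RNA. The mean rose 3.80-fold, from 15.5 ± 7.63 to 58.8 ± 6.08 FPKM (SD, n = 3; log2 fold change 1.95, SE 0.31, limma adjusted p = 0.0294), and without WT replicate 2 the log2 fold change was 2.30 (adjusted p = 0.00988). Sod3, the secreted copper-zinc enzyme that binds matrix heparan sulfate (chromosome 5, 52363791 to 52371418, plus strand), read 76.0, 84.0 and 93.7 FPKM in the 3 WT libraries, against 182.5, 191 and 222 FPKM in A2ARKO. Each A2ARKO library was far above each WT library. Its mean rose 2.35-fold, from 84.5 ± 8.84 to 199 ± 20.6 FPKM (log2 fold change 1.22, SE 0.14, adjusted p = 0.0119, the smallest of the 40). Sod1, the cytosolic enzyme, and Cat, the catalase of peroxisomes, did not pass. Sod1 averaged 127 ± 4.19 and 143 ± 10.9 FPKM and Cat 42.8 ± 3.55 and 45.7 ± 1.27 FPKM (adjusted p of 0.426 and 0.580). Every A2ARKO library was narrowly above every WT library for Sod1 (132 to 154 FPKM against 123 to 131 FPKM), while the groups of Cat overlapped.

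Within the summed FPKM of these 4 genes, Sod1 made up 48.9%, 46.3% and 46.4% in WT and 35.0%, 32.9% and 28.4% in A2ARKO. Sod3 went the other way, from 30.3%, 30.2% and 33.3% to 41.6%, 44.1% and 47.8%. The secreted enzyme's mRNA was thus above the cytosolic enzyme's in all 3 A2ARKO libraries, at 1.19, 1.34 and 1.68 times its level, and below it in all 3 WT libraries, at 0.62, 0.653 and 0.718 times. Sod2 rose from 5.71 ± 2.66% to 13.2 ± 0.915% of the class. Such shares do not depend on how libraries are scaled to each other. Sod2 did not pass without A2ARKO replicates 1, 2 or 3 (adjusted p of 0.102, 0.113 and 0.119). Sod3 passed without any 1 of the WT libraries and without A2ARKO replicate 1 (0.0476), and did not pass without A2ARKO replicates 2 or 3 (0.0730 and 0.0679).

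**Figure D3:**
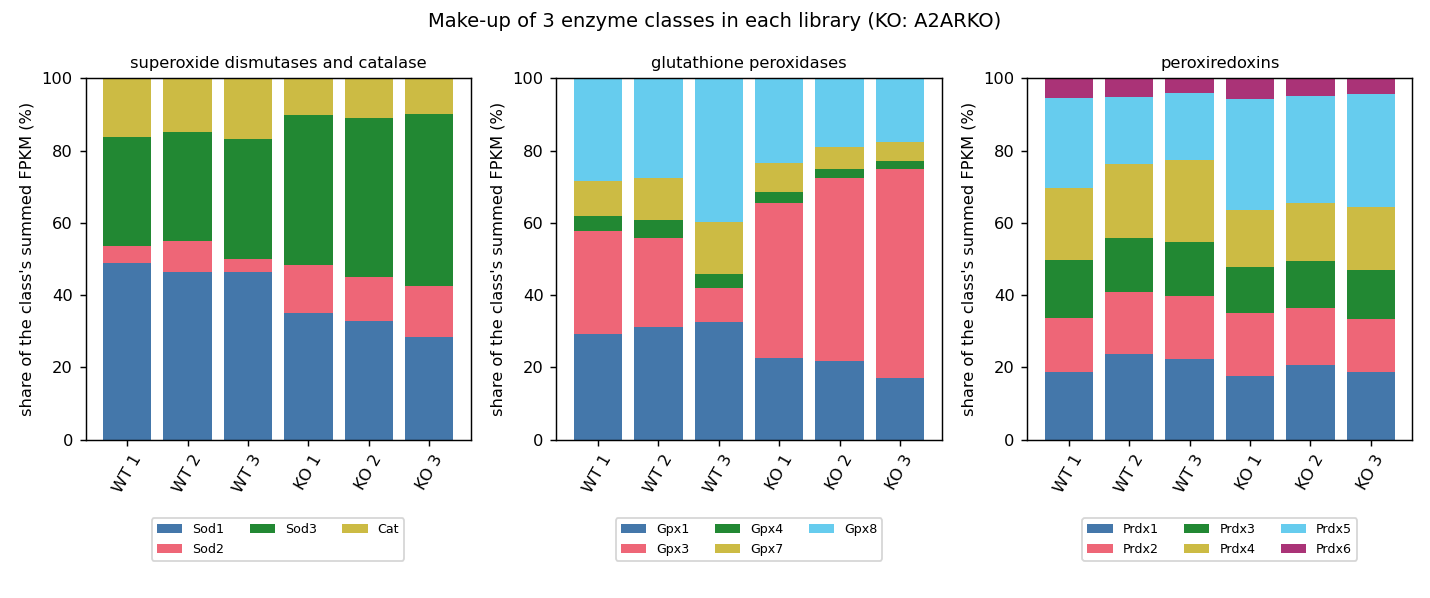
Share (%) of each gene in the summed FPKM of its class, for superoxide dismutases and catalase, glutathione peroxidases and peroxiredoxins, 1 bar per library. Sod3, Gpx3 and Prdx5 take up more of the bar in all 3 A2ARKO libraries than in any WT library, and Sod1 and Gpx1 less.

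Gpx3, the plasma glutathione peroxidase that cells secrete (chromosome 11, 54902453 to 54910377, plus strand), had the largest log2 fold change of the 40 with all 6 libraries but did not pass. It read 147, 123 and 41.7 FPKM in the 3 WT libraries, against 303, 420 and 538 FPKM in A2ARKO. The groups were apart, yet the WT libraries spanned more than 3-fold, and the means of 104 ± 55.3 and 420 ± 117 FPKM (SD, n = 3) gave a log2 fold change of 2.15 with an SE of 0.51 (limma adjusted p = 0.0664). Without WT replicate 1 or WT replicate 3 it passed (adjusted p of 0.0480 and 0.0437). Its log2 fold change ran from 1.596 without WT replicate 3, then below the 1.72 of Sod2, to 2.49 without WT replicate 1. Within each genotype Gpx3 followed the order of the type II collagen gene Col2a1, which read 18662, 808 and 185 FPKM in the 3 WT libraries, against 1363, 2939 and 3887 FPKM in A2ARKO. Between genotypes it did not, since WT replicate 1 had the highest Col2a1 and less Gpx3 than every A2ARKO library, and the part of chondrocyte marker levels in the Gpx3 values was not tested.

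The cellular glutathione peroxidases were near their WT levels. Gpx1, the cytosolic enzyme, averaged 150 ± 5.92 FPKM in WT and 165 ± 12.2 FPKM in A2ARKO. Its A2ARKO libraries (157 to 179 FPKM) were all above its WT libraries (144 to 155 FPKM), a small separation. Gpx4, which reduces lipid hydroperoxides in membranes, averaged 21.2 ± 3.55 and 20.7 ± 1.04 FPKM. Of the enzymes of the endoplasmic reticulum, Gpx7 averaged 57.3 ± 6.76 and 51.7 ± 5.10 FPKM, and Gpx8 averaged 154 ± 19.8 and 162 ± 3.28 FPKM. Their log2 fold changes ran from -0.14 to 0.13, and none of the class's 5 genes passed limma (1, Gpx3, had an unadjusted p below 0.05). Gpx3 went from 20.8 ± 10.1% to 50.6 ± 7.55% of the summed FPKM of the class. Gpx8 had the highest WT mean of all 40 members (154 FPKM), followed by Gpx1, Hmox1, Ephx1 and Sod1, and in A2ARKO the order was led by Gpx3 (420 FPKM), Ephx1 (215 FPKM) and Sod3 (199 FPKM). The spread of Hmox1 and Ephx1 in WT was larger than their distance from these neighbours.

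Among the peroxiredoxins, Prdx5 alone passed. It encodes a thioredoxin-dependent peroxidase of mitochondria, peroxisomes and cytosol (chromosome 19, 6906697 to 6910106, minus strand) and read 69.1, 65.7 and 55.0 FPKM in the 3 WT libraries, against 117, 113 and 119 FPKM in A2ARKO. The 3 A2ARKO values were nearly equal and all above WT. The mean rose 1.85-fold, from 63.2 ± 7.36 to 117 ± 2.95 FPKM (SD, n = 3; log2 fold change 0.88, SE 0.12, limma adjusted p = 0.0192). The annotated span of Prdx5 overlaps Trmt112 on the opposite strand, which averaged 3.94 and 5.04 FPKM. Prdx3, the other mitochondrial member, averaged 46.82 ± 4.198 and 49.98 ± 1.444 FPKM, so the ratio of Prdx5 to Prdx3 went from 1.35 ± 0.146 to 2.33 ± 0.0455 with no overlap. The cytosolic Prdx1, Prdx2 and Prdx6 and Prdx4 of the endoplasmic reticulum had log2 fold changes between -0.04 and 0.32 and adjusted p of 0.298 or more, and the groups of each overlapped. Prdx2, also abundant in red blood cells, shares its span with the opposite-strand gene Junb, which averaged 21.4 and 52.7 FPKM, and reads of the pair cannot be told apart without a stated strand setting. Prdx5 did not pass without A2ARKO replicates 1, 2 or 3 (adjusted p of 0.0744, 0.104 and 0.101).

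In the thioredoxin and glutaredoxin system, Glrx passed. It encodes glutaredoxin-1, which removes glutathione from protein thiols (chromosome 13, 75839868 to 75850154, plus strand), and read 14.2, 22.9 and 11.2 FPKM in the 3 WT libraries, against 40.2, 38.2 and 41.5 FPKM in A2ARKO. WT replicate 2 was again the highest of WT, and the A2ARKO values were all higher and close together. The mean rose 2.48-fold, from 16.1 ± 6.08 to 39.96 ± 1.690 FPKM (SD, n = 3; log2 fold change 1.32, SE 0.24, limma adjusted p = 0.0412). Txn1, the cytosolic thioredoxin and the most abundant of the class, read 80.3, 126 and 129 FPKM in the 3 WT libraries, against 154, 148 and 147 FPKM in A2ARKO, apart but with a low WT replicate 1 (log2 fold change 0.45, adjusted p = 0.237, and 0.23 on the log2 scale without that library). Its reductase gene Txnrd1 was also separated, at 31.8 ± 3.52 and 44.9 ± 4.71 FPKM (adjusted p = 0.0837). The mitochondrial pair Txn2 and Txnrd2 and the sulfiredoxin gene Srxn1, which repairs over-oxidized peroxiredoxins, had log2 fold changes of 0.14, 0.10 and 0.11 with overlapping groups. Msra, which repairs oxidized methionine, averaged 3.63 ± 0.205 and 4.80 ± 0.612 FPKM and did not pass. The Glrx call was lost with WT replicate 1 left out (adjusted p = 0.0593), with A2ARKO replicates 1, 2 or 3 left out (0.131, 0.153 and 0.157) and after rescaling (0.0521).

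Gstt1, a theta-class transferase that conjugates small halogenated compounds (chromosome 10, 75783813 to 75798584, minus strand), was the only glutathione transferase that passed. It read 9.34, 9.81 and 15.4 FPKM in the 3 WT libraries, against 36.3, 26.9 and 32.4 FPKM in A2ARKO, with no overlap and WT replicate 3 the highest of WT. The mean rose 2.77-fold, from 11.5 ± 3.38 to 31.9 ± 4.69 FPKM (SD, n = 3; log2 fold change 1.42, SE 0.21, limma adjusted p = 0.0241). Gstt1 lies 0.47 Mb from Adora2a, the closest of the 3 members on that chromosome (Gpx4 lies at 4.73 Mb and Txnrd1 at 7.54 Mb). Of the 21 other tested genes within 1 Mb of Adora2a, Gstt1 was the 1 that was called, or 4.76%, and within 5 Mb 4 of 93 were, or 4.3%. The genes beside it did not pass, but Mif (48.6 ± 17.1 FPKM in WT and 98.5 ± 6.11 FPKM in A2ARKO, log2 fold change 1.06, adjusted p = 0.0637) and Ddt (12.1 ± 1.93 and 17.7 ± 1.68 FPKM, adjusted p = 0.0840) were also higher in every A2ARKO library. The groups of the other 2 theta-class genes overlapped: Gstt3 averaged 5.65 ± 1.16 FPKM in WT and 8.35 ± 1.57 FPKM in A2ARKO (adjusted p = 0.159), and Gstt2 2.54 ± 1.07 FPKM in WT and 2.283 ± 0.3197 FPKM in A2ARKO (adjusted p = 0.889). Linkage to the deleted gene and the loss of the receptor cannot be told apart in this design. Its call was lost with WT replicate 2 left out (adjusted p = 0.0631), with A2ARKO replicates 1, 2 or 3 left out (0.0882, 0.0808 and 0.110) and after rescaling (0.0544).

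The other 7 transferases did not pass. Gstp1, the most abundant over the 6 libraries, read 39.7, 38.2 and 42.9 FPKM in the 3 WT libraries, against 52.4, 47.9 and 47.3 FPKM in A2ARKO, a small separation (log2 fold change 0.28, limma adjusted p = 0.132). Mgst1, a membrane-bound transferase, read 10.9, 31.7 and 31.6 FPKM in the 3 WT libraries, against 57.3, 36.8 and 34.1 FPKM in A2ARKO, separated but with wide spread (log2 fold change 0.87, adjusted p = 0.282, and 0.38 on the log2 scale without WT replicate 1). Gstm1, Gstm2 and Gsto1 overlapped between genotypes at log2 fold changes of 0.16, 0.07 and 0.32. Gsta4, which detoxifies the lipid peroxidation product hydroxynonenal, and Mgst3 had the lowest log2 fold changes of the 40 (-0.45 and -0.31; adjusted p of 0.389 and 0.384), with overlap. Gstp1 and Gstp2 are near-identical copies and the mu-class genes are similar in sequence, and reads may be split among such genes, which was not measured here.

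The 4 NRF2-linked detoxifying enzymes gave no call by limma, and 1 had an unadjusted p below 0.05. That was Nqo1, a quinone reductase often used as a readout of NRF2 (chromosome 8, 107388225 to 107403206, minus strand), at 17.0, 8.76 and 20.3 FPKM in the 3 WT libraries, against 33.5, 43.4 and 27.5 FPKM in A2ARKO. The groups did not overlap, but both were spread (15.4 ± 5.96 and 34.8 ± 8.05 FPKM; log2 fold change 1.18, SE 0.32, adjusted p = 0.0927), and it did not pass in any of the fits with 1 library left out. Hmox1, heme oxygenase-1, another standard NRF2 target, read 190, 144 and 64.0 FPKM in the 3 WT libraries, against 131, 128 and 99.9 FPKM in A2ARKO. The A2ARKO libraries lay inside the WT range (log2 fold change -0.02, adjusted p = 0.981). Ephx1, microsomal epoxide hydrolase, read 173, 53.9 and 156 FPKM in the 3 WT libraries, against 181, 224 and 241 FPKM in A2ARKO, and WT replicate 2 stood apart as low (log2 fold change 0.91, adjusted p = 0.277, and 0.38 on the log2 scale without that library). Akr1b8, an aldo-keto reductase, overlapped, at 20.8 ± 7.68 and 26.6 ± 1.54 FPKM.

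**Figure D4:**
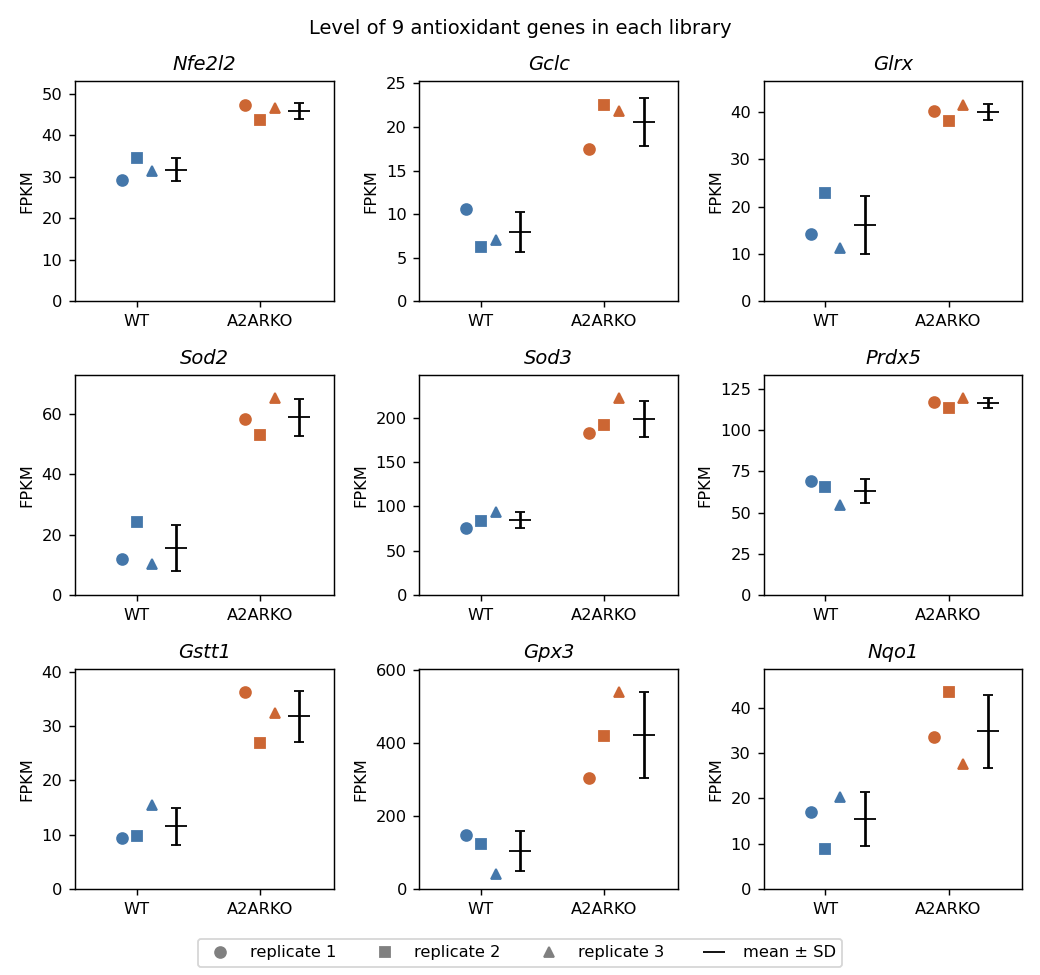
FPKM of the 7 members that rose and of Gpx3 and Nqo1 in each library, WT in blue and A2ARKO in orange, with mean ± SD in black. In all 9 genes every A2ARKO library lies above every WT library, and WT replicate 2 is the highest of WT in Glrx (22.9) and Sod2 (24.2).

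Genes that supply or steer this defence were read from the same fit, in which 3.31% of all tested genes were called as higher and 1.77% as lower. Of 11 tested partners and repressors of NRF2, Maff, a small MAF protein that pairs with it, rose, from 3.65, 3.64 and 4.18 to 20.7, 18.3 and 13.3 FPKM (log2 fold change 1.91, limma adjusted p = 0.00628), 0 fell and 10 did not pass. Of 15 NADPH supply genes, 4 rose and 1 fell. The pentose phosphate dehydrogenases G6pdx and Pgd and the NAD kinase Nadk rose by 0.79, 0.70 and 0.65 on the log2 scale, G6pdx from 38.6 ± 3.50 to 67.5 ± 2.26 FPKM (SD, n = 3). The folate enzyme Mthfd1, named after its value was seen, rose from 17.0 ± 1.40 to 27.1 ± 0.739 FPKM. Aldh1l2, a mitochondrial folate enzyme that makes NADPH, fell from 37.0 ± 3.32 to 12.003 ± 1.296 FPKM (log2 fold change -1.55, adjusted p = 0.00372). Aldh1l2 lies on chromosome 10 (83487450 to 83534140), as does Adora2a (75316877 to 75334784). Within 10 Mb of Adora2a, 4.49% of 178 tested genes were called. For Aldh1l2 too, linkage to the deleted gene and the loss of the receptor cannot be told apart. After rescaling, none of the 4 rises passed (adjusted p of 0.0544 for G6pdx, 0.0935 for Pgd, 0.0962 for Nadk and 0.0674 for Mthfd1).

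Of 16 other NRF2 target genes, Fth1, the ferritin heavy chain that stores iron, and Ugdh rose and 14 did not pass, Slc7a11 and Osgin1 among them. Fth1 read 1389, 1889 and 1022 FPKM in the 3 WT libraries, against 5228, 5626 and 6758 FPKM in A2ARKO (log2 fold change 2.07, limma adjusted p = 0.0441), and the call was gone in each of the 6 fits with 1 library out (adjusted p between 0.0517 and 0.181). Of 8 tested genes of copper and metal handling, the zinc and manganese importers Slc39a8 and Slc39a14 rose, from 0.877 ± 0.266 to 13.0 ± 7.61 and from 16.0 ± 4.85 to 47.8 ± 11.5 FPKM. Slc39a8 read 0.65, 1.17 and 0.81 FPKM in WT, so it entered the test through its A2ARKO values. The metallothioneins Mt1 and Mt2, named after their values were seen, were higher in every A2ARKO library (log2 fold change 1.75 for Mt1 and 2.41 for Mt2) but missed the threshold (adjusted p of 0.0527 and 0.0593). None of 14 tested genes of cysteine and glutathione turnover passed limma (3 had an unadjusted p below 0.05, as did 2863 of all 11595 tested genes). Of 10 other glutathione transferases and related genes Ptges, prostaglandin E synthase, rose. Of 13 other thiol redox genes Sesn1 fell, of 18 genes of selenoproteins and their synthesis Selm fell, and of 7 tested sources of superoxide and peroxide Maoa rose, at log2 fold changes of 1.49, -0.69, -0.62 and 0.53 for these 4 genes. Calls in either direction made up 7.69% of the thiol redox list and 5.56% of the selenoprotein list, near the 5.08% of all tested genes. Of the 14 genes named here from these further lists, 12, 7 and 10 passed without WT replicates 1, 2 and 3 and 4, 2 and 2 without A2ARKO replicates 1, 2 and 3, and Maff and Aldh1l2 passed in all 6 of these fits. After rescaling 6 passed, which were Maff, Fth1, Aldh1l2, Sesn1, Slc39a8 and Slc39a14.

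Leaving out an A2ARKO library ended most calls among the 40 members, as it did over all tested genes. Without WT replicates 1, 2 and 3, 8, 4 and 7 members passed limma, and without A2ARKO replicates 1, 2 and 3, 1, 0 and 0 did (12, 13 and 13 had an unadjusted p below 0.05). Of all 11595 tested genes, 900, 300 and 852 passed in the 3 fits without a WT library. In the 3 without an A2ARKO library, 120, 50 and 75 did. Without WT replicate 1, highest in chondrocyte markers, and WT replicate 2, highest in macrophage and muscle markers, together, 6 passed: Gclc, Glrx, Sod2, Sod3, Gpx3 and Prdx5. That fit leaves WT replicate 3, the lowest of the 6 libraries in chondrocyte markers, and takes its spread to be that of the A2ARKO libraries. Over the 6 fits with 1 library out, the log2 fold changes of the 7 members stayed above 0. They ran from 0.47 to 0.59 for Nfe2l2, 0.78 to 0.95 for Prdx5, 1.14 to 1.30 for Sod3 and 1.29 to 1.63 for Gstt1. The ranges were wider for Gclc (1.15 to 1.496), Glrx (1.10 to 1.59) and Sod2 (1.72 to 2.30).

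**Figure D5:**
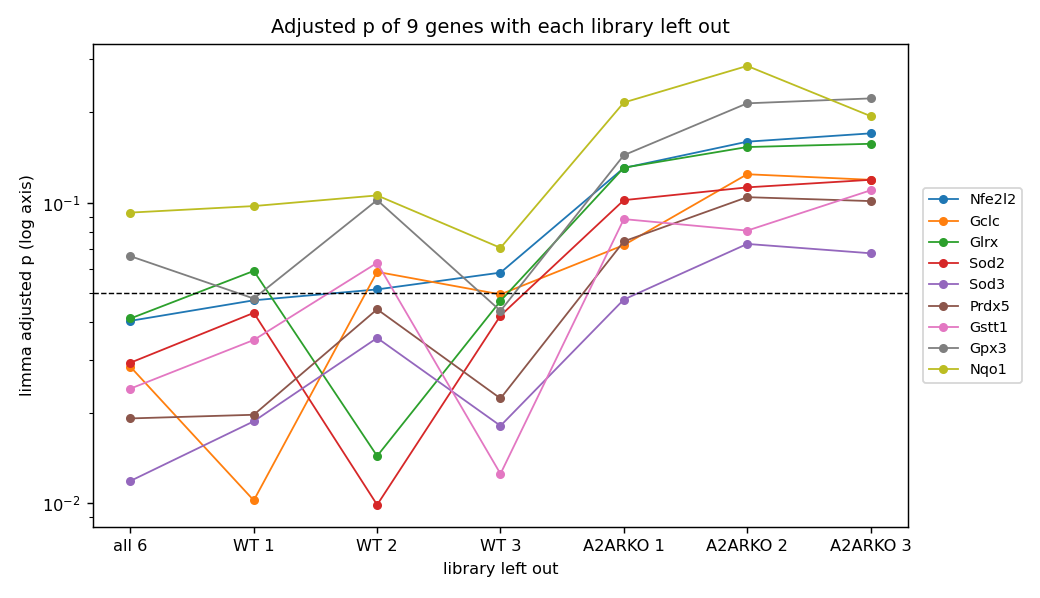
Limma adjusted p (log axis) of the 7 members that rose and of Gpx3 and Nqo1 with all 6 libraries and with each left out, and a dashed line at 0.05. Points lie above the line for all 9 genes without A2ARKO replicates 2 or 3, and Sod3 is the lowest there (0.0730 and 0.0679).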

How the data were processed

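Per the labels' protocols, RNA of trypsinized cells was pooled over whole litters, 3 per genotype, and sequenced on an Illumina HiSeq. The authors deposited gene-level FPKM (reads scaled to gene length and library depth) for 47480 genes in 6 libraries. Per the submitters' processing notes, HTSeq and build mm10 were used, and no source used here gives the aligner, the versions, the gene lengths or the handling of strand. FPKM do not state the counting error of the reads behind them, and an abundant transcript lowers the others. Depth was estimated from genes of at most 150 nt in GENCODE M21, where 99.0% or more of values up to 10 reads were whole within 0.1 read.

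Genes at 1 FPKM or more in at least 3 libraries (11595) were fitted with limma 3.58.1 in R 4.3.3 on log2(FPKM + 1), with an intensity trend, two-sided and without a block, adjusted by Benjamini-Hochberg over all tested genes and called below 0.05. The fit was tested on simulated data. Fold changes on this scale understate low genes, and p-values measure the spread between litter pools.

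The members and lists were chosen with earlier results of these data known. Library values are given for members that were called or had an absolute log2 fold change of 1 or more, Nfe2l2, Keap1 and the most abundant member of each class, with further genes where a comparison needed them. From each further list up to 4 called genes, those with the largest change, are named by rule, and Mthfd1, Mt1, Mt2 and the genes beside Adora2a were named after their values were seen. The alternatives were other pseudocounts and filters, rescaling to the same FPKM sum, quantile normalization, no trend, quality weights, a replicate block and leaving out each library.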

Additional observations from a re-analysis of the deposited data

How the results depend on the processing

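The 7 calls among the 40 members were kept with a pseudocount of 0.1 or 0.5, with 1 FPKM required in all 6 libraries, without the intensity trend and with library quality weights (9 members). They came to 6 after quantile normalization, 4 after rescaling to the same FPKM sum and 2 with no filter (14 had an unadjusted p below 0.05), which tests more genes by construction. Their median log2 fold change of 0.298 was 0.185 after rescaling and 0.195 with quality weights. Over all tested genes 589 calls became 213 with no filter, 348 after rescaling and 1096 with quality weights. Keap1 turned from 0.08 to -0.029 after rescaling. The Adora2a log2 fold change of -2.25 was the same with no filter but did not pass (adjusted p = 0.0533). With 1 library left out, the members called numbered 0 to 8, the median 0.195 to 0.365, all calls 50 to 900 and the Adora2a log2 fold change -2.60 to -1.99. The Adora2a call was lost when WT replicate 2 was left out (adjusted p = 0.0582), as it was without A2ARKO replicates 1, 2 or 3 (0.0824, 0.0955 and 0.0864). Except where stated, the cause was not tested.

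Groups share replicate numbers, but same-numbered libraries did not deviate together (correlations of -0.521, -0.325 and -0.387 across genes), and no library correlated best with its own number. With the replicate block 0 members (12 at an unadjusted p below 0.05) and 2 of all genes passed limma, and Adora2a stayed at -2.25 (adjusted p = 0.121). The fit with WT replicates 1 and 2 left out together was chosen after seeing the data (627 calls). Precision rests on 3 litter pools per genotype, while the counting error of the least-read member value, in Txnrd2, was about 5.63%.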
